A study of Xenopus laevis with 3 samples.

Results

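Hox genes encode homeodomain transcription factors that lie in clusters and are read out along the body axis in the order of their position, so that low-numbered paralogs mark the hindbrain and the pharyngeal arches and high-numbered paralogs mark the trunk, tail and limbs. Forebrain, midbrain, eye and the most anterior arch form without Hox expression, and in the hyoid arch behind it hoxa2 sets the identity of the skeleton that the neural crest makes. Hox proteins bind DNA together with Pbx and Meis cofactors, and retinoic acid, Fgf and Wnt signals switch the genes on in the embryo. The Hox cluster genes described here are all probe sets on the array whose single gene symbol begins with hoxa, hoxb, hoxc or hoxd followed by a number, which gave 38 probe sets of 25 gene symbols. The array has 32635 probe sets in all, of which 15495 carried a single symbol, for 11303 different symbols. Paralogs 1 to 5 were called anterior (11 probe sets, 8 symbols) and paralogs 6 to 13 posterior (27 probe sets, 17 symbols).

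Whole tadpole heads of Xenopus laevis, the African clawed frog, supplied the RNA in a study of cartilage formation, with 1 Affymetrix array in each of 3 groups. All groups were embryos made by in vitro fertilisation, injected early in cleavage into the animal pole of every cell with 10 ng of a morpholino per cell, kept at 22 °C and cut 72 hours after fertilisation, at about stage 41. They received CoMO, which served here as the control, xMLTK-MO against the protein kinase MLTK, or xSox6-MO against the transcription factor Sox6; strain, number of pooled heads and clutch are not given in the sources used here. A morpholino blocks translation or splicing and need not lower the mRNA, and since 0 annotated probe sets carried the symbols map3k20 (MLTK) or sox6, the knockdown could not be checked on these arrays. With 1 array per group there were no replicates, no test was possible and every difference describes these 3 arrays only, and the number of arrays limits the precision.

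The values are probe set intensities made by RMA, which corrects background, equalises the arrays' distributions and summarises the probes of a set. The median intensity over the non-control probe sets was 92.7 in CoMO, 91.1 in xMLTK-MO and 89.9 in xSox6-MO. The array carries 23 negative control probe sets, for sequences that the sample should lack, and the brightest of them had an intensity of 23.3, 26.2 and 21.0 on the 3 arrays. A probe set was called measured on an array when it was brighter than that control. Intensity also depends on how well the probes bind, so levels of different probe sets are not ranked against each other, and a probe set that is not above the control has only an upper bound.

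Heads of these tadpoles showed the anterior part of the Hox series and little of the posterior part. Of the 11 anterior probe sets, 9 were above the highest negative control in CoMO, 10 in xMLTK-MO and 10 in xSox6-MO, while of the 27 posterior ones 1, 1 and 2 were. Among all non-control probe sets, 72.9% were above the control in CoMO, 71.3% in xMLTK-MO and 73.7% in xSox6-MO, and among those with a single gene symbol 81.4%, 80.3% and 81.9% were. The anterior share (81.8%, 90.9% and 90.9%) was thus near that of named probe sets in general, and the posterior share (3.70%, 3.70% and 7.41%) was far below it. In terms of genes, 8 of 8 anterior and 2 of 17 posterior symbols had a probe set above the control on at least 1 array.

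**Figure D1:**
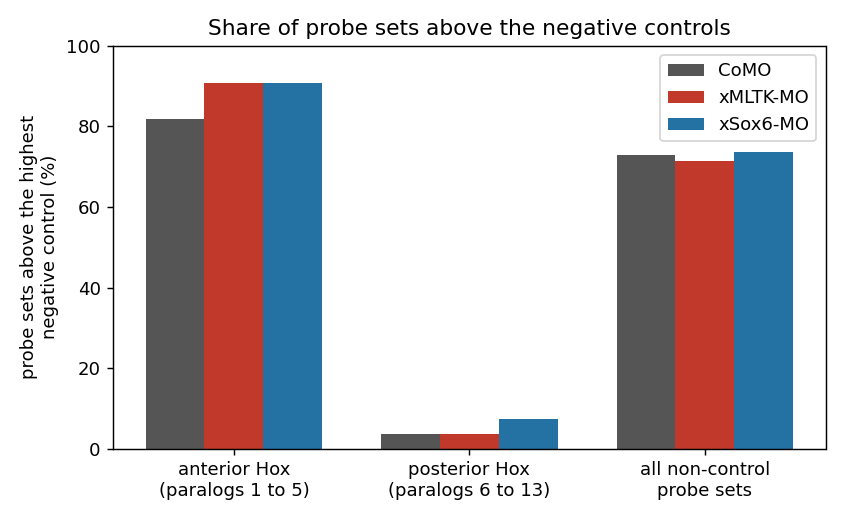
Share of probe sets above the highest negative control (y axis, percent) on each array, for the 11 anterior Hox probe sets, the 27 posterior Hox probe sets and all 32539 non-control probe sets. Bars of the posterior group stay at or below 7.41%, those of the anterior group at or above 81.8%.

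The posterior count depends on the limit, because 1 negative control stood well above the others. Measured against the second brightest control, at an intensity of 13.4, 14.5 and 14.2, the posterior counts were 8, 9 and 8 of 27 where 81.9%, 81.1% and 80.4% of all probe sets passed. The posterior genes that passed this lower limit on every array were hoxb6.S, hoxc6.S, hoxd8.L, hoxb9, hoxa11.S and hoxd13.S. At a limit of 2 times the brightest control, 1 posterior probe set passed on each array, that of hoxd8.L, where 62.4%, 60% and 63.2% of all probe sets passed.

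The annotated probe sets covered the clusters unevenly. A further 16765 probe sets carried no symbol, so a Hox gene without a match may still be on the array. The RefSeq table for assembly Xenopus_laevis_v10.1 names 56 Hox genes, of which 23 were matched by a member probe set through the gene identifier, 8 of 22 in paralogs 1 to 5 and 15 of 34 in paralogs 6 to 13. Of its 6 genes of paralog 1, 0 were matched. The 5 probe sets annotated hoxb9 and hoxd9 were not matched by identifier and keep the platform's names, without a homeolog suffix. Many genes of this tetraploid frog exist as homeologs on a long and a short chromosome, named .L and .S, and hoxa2 was the only measured gene with both. A further 2 probe sets named xhoxc8, 1 of them shared with hoxc8.S, fell outside the rule and had intensities between 5.30 and 6.10, below the controls.

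**Figure D2:**
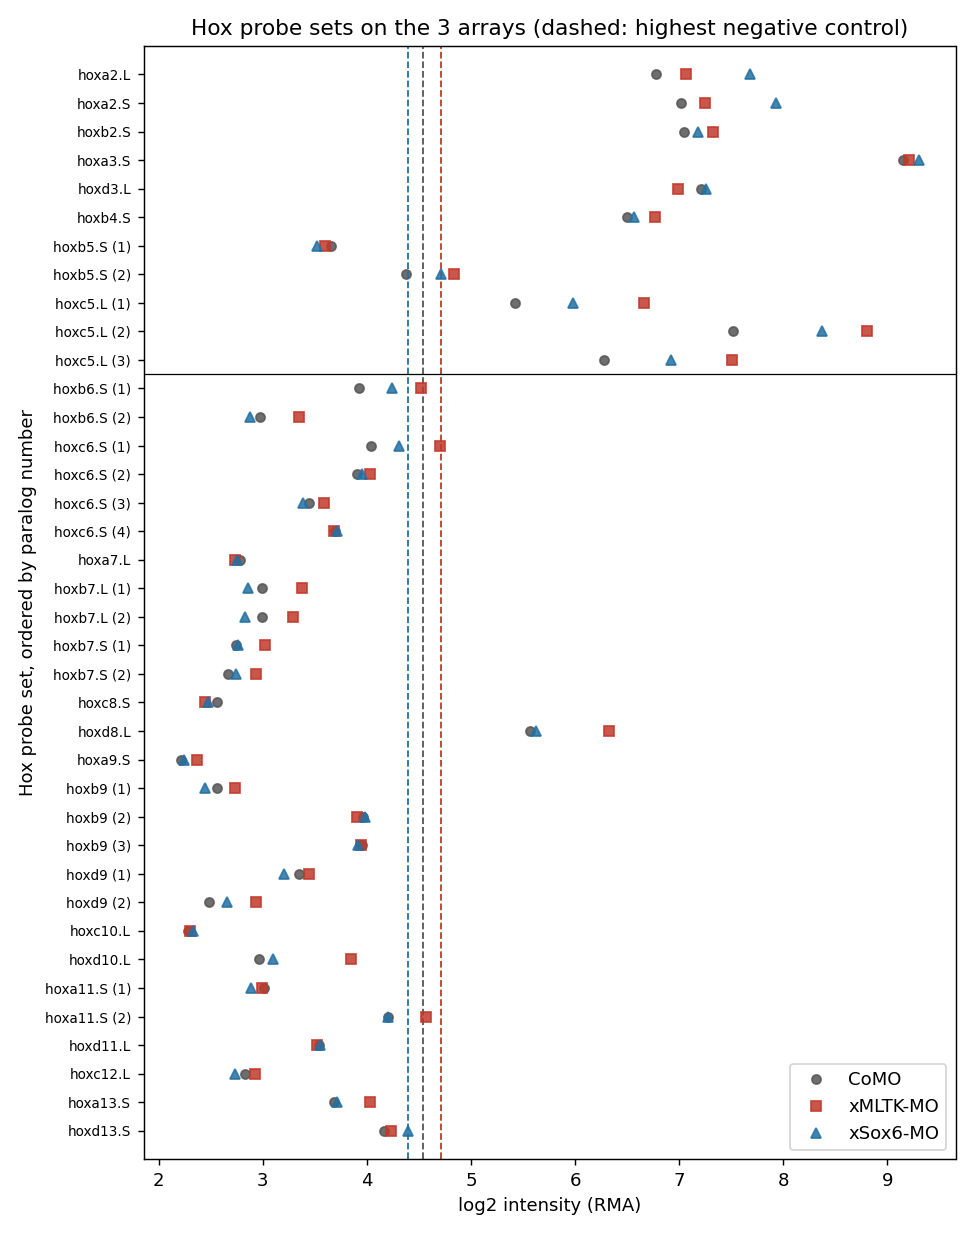
Log2 intensity (x axis) of the 38 Hox probe sets, ordered by paralog number from hoxa2 at the top to hoxd13 at the bottom, with 1 symbol per array; dashed lines are the highest negative control of each array and the horizontal line separates anterior from posterior paralogs. A number in brackets tells probe sets of the same gene apart. Anterior probe sets lie to the right of the controls except hoxb5.S, and of the posterior ones only hoxd8.L lies clearly to the right.

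Among the genes of the hyoid arch and anterior hindbrain, hoxa2 was higher in heads given xSox6-MO. The probe set of hoxa2.L had an intensity of 110 in CoMO, 134 in xMLTK-MO and 205 in xSox6-MO. That of hoxa2.S had 130, 152 and 244. Both homeologs were thus lowest on the control array and highest on the Sox6 array, 1.87-fold and 1.89-fold above CoMO, while the xMLTK-MO array was 1.22-fold and 1.17-fold above it. The log2 differences of the 2 homeologs from CoMO lay 0.017 apart in xSox6-MO, where the median over 1662 homeolog pairs was 0.19. The homeologs were read in the same RNA and may share probe sequence, so they do not replicate each other.

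The other gene of paralog group 2 did not follow hoxa2. In mouse, Hoxb2 acts in hindbrain segments and facial motor neurons. The hoxb2.S probe set had an intensity of 132 in CoMO, 161 in xMLTK-MO and 146 in xSox6-MO. It was 1.21-fold higher than CoMO in xMLTK-MO and 1.10-fold higher in xSox6-MO, so here the MLTK array was the highest of the 3.

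Genes of the posterior hindbrain and the more posterior arches differed little between arrays. The hoxa3.S probe set had an intensity of 570 in CoMO, 592 in xMLTK-MO and 630.5 in xSox6-MO, at most 1.11-fold apart; in mouse, Hoxa3 is needed for thymus, parathyroid and throat cartilages that come from the posterior arches. The hoxd3.L probe set, of a gene that in mouse shapes the uppermost neck vertebrae, had 148, 127 and 154. It was the only measured probe set with a difference below 0 in xMLTK-MO against CoMO, at -0.23 on the log2 scale. The hoxb4.S probe set, of a gene expressed from the posterior hindbrain backwards, had 90.5, 109 and 95.0, which made it 1.20-fold higher than CoMO in xMLTK-MO and 1.05-fold higher in xSox6-MO.

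Paralog group 5, whose members are expressed around the boundary of hindbrain and spinal cord and in the neck and upper trunk, held the largest differences of the Hox genes measured. The array carries 3 probe sets of hoxc5.L, whose product in mouse marks motor neurons of the neck spinal cord. The brightest probe set had an intensity of 183 in CoMO, 447 in xMLTK-MO and 330.5 in xSox6-MO. Another had 77.7, 182 and 121, and the dimmest had 42.8, 101 and 63.2. All 3 ordered the arrays alike, CoMO lowest and xMLTK-MO highest. Against CoMO they were 2.45-fold, 2.34-fold and 2.37-fold higher in xMLTK-MO, and 1.81-fold, 1.56-fold and 1.48-fold higher in xSox6-MO. Their log2 differences in xMLTK-MO spanned 0.064, where the median span over 537 symbols with 3 or more probe sets was 0.29. In xSox6-MO their span was 0.29, against a median of 0.36 over 554 symbols. Probe sets of 1 gene read the same RNA and are not replicates.

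The second gene of this group was at the edge of measurement. Of the 2 hoxb5.S probe sets, 1 had an intensity of 12.6, 12.1 and 11.5 and was below the control on every array. The other had 20.7 in CoMO, 28.7 in xMLTK-MO and 26.3 in xSox6-MO, below the control of the CoMO array and just above those of both knockdown arrays. With the CoMO value raised to its control, the differences from CoMO were 1.23-fold in xMLTK-MO and 1.13-fold in xSox6-MO. With the highest of the 3 controls, 26.2, as limit on every array, they were 0.13 and 0.0043 on the log2 scale. The probe set entered these comparisons only through the knockdown arrays, where it was brighter, so no direction is read from it. In the order of the RefSeq table, hoxb5.S lies between hoxb4.S and hoxb6.S and hoxc5.L lies next to hoxc6.L. No member probe set was of hoxc6.L, so the neighbour of hoxc5.L was not read. The probe sets of its homeolog hoxc6.S stayed below the controls, the brightest of 4 reaching 16.4, 26.0 and 19.9.

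**Figure D3:**
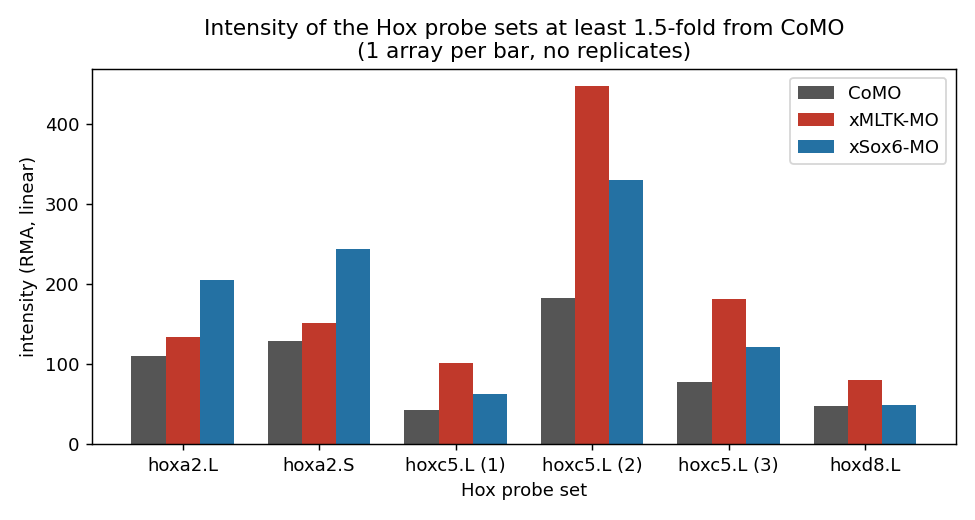
Linear intensity (y axis) of the 6 Hox probe sets that differed at least 1.5-fold from CoMO on a knockdown array, with 1 bar per array and no replicates. The hoxa2 pair is highest in xSox6-MO (205 and 244), the hoxc5.L probe sets and hoxd8.L are highest in xMLTK-MO (101 to 447, and 80.4).

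Of the posterior genes, hoxd8.L was the only one above the controls on all 3 arrays. Its probe set had an intensity of 47.3 in CoMO, 80.4 in xMLTK-MO and 49.3 in xSox6-MO. The MLTK array stood apart from the other two, 1.70-fold above CoMO and 1.63-fold above xSox6-MO, while xSox6-MO and CoMO were 1.04-fold apart. The hoxd13.S probe set, of a gene best known from the digits and the end of the body axis, had 17.9, 18.8 and 21.1, and passed the control only in xSox6-MO, by less than 1% of its intensity. No direction can be given for it, since the control itself was brighter in CoMO than in xSox6-MO.

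The other 25 posterior probe sets were below the controls on every array. They covered hoxb6.S and hoxc6.S, hoxa7.L, hoxb7.L and hoxb7.S of the trunk, hoxc8.S, hoxa9.S, hoxb9 (a standard marker of Xenopus spinal cord), hoxd9, hoxc10.L and hoxd10.L, and hoxa11.S, hoxd11.L, hoxc12.L and hoxa13.S, whose best known roles are in limbs and tail. Their intensities ran from 4.63 to 18.4 in CoMO with a median of 7.98, from 4.92 to 26.0 in xMLTK-MO with a median of 10.4, and from 4.74 to 19.9 in xSox6-MO with a median of 7.39. Including the dim hoxb5.S probe set, 18 of these 26 exceeded their CoMO intensity in xMLTK-MO and 14 of 26 did so in xSox6-MO. The 23 negative controls, which hold no signal of the embryo, were brighter than in CoMO in 14 and 8 cases, so no difference is read from probe sets in this range.

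Few of the measured Hox probe sets passed a 2-fold difference. Values below the control of an array were raised to it before these differences were taken. In xMLTK-MO against CoMO, 3 of 11 probe sets measured on at least 1 of the arrays were at least 2-fold higher, where 1.29% of all 23970 such probe sets were, and 0 were at least 2-fold lower, where 0.809% were. The 3 are those of hoxc5.L and thus 1 gene, and over probe sets in the range of mean intensity of the measured Hox probe sets (19.2 to 597) the share of higher ones was 1.37%. In xSox6-MO against CoMO, 0 of 12 were at least 2-fold higher (0.868% of all) and 0 lower (1.13% of all). Between the knockdowns, 0 of 12 were at least 2-fold higher in xMLTK-MO than in xSox6-MO (0.556% of all) and 0 lower (0.294% of all).

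At 1.5-fold, a threshold at which more of all probe sets pass, further Hox genes entered. In xMLTK-MO, 4 of 11 were higher than in CoMO, hoxd8.L beside hoxc5.L, with a background of 4.32%. In xSox6-MO, 4 of 12 were higher, both hoxa2 homeologs and 2 of the hoxc5.L probe sets, with a background of 4.49%. Between the knockdowns 3 of 12 were higher in xMLTK-MO than in xSox6-MO, 2 of hoxc5.L and hoxd8.L, with a background of 2.85%, and 2 of 12, the hoxa2 pair, were lower, with a background of 2.09%. No Hox probe set was 1.5-fold lower than in CoMO on either array, where 4.31% and 5.51% of all probe sets were. Both comparisons with CoMO share that array, so a value that is low there raises both differences.

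For the sign of the differences, only probe sets above the control on both arrays of a pair were counted, since hoxb5.S entered the comparisons with CoMO only through the knockdown arrays where it was brighter, and the sign of hoxd13.S came from the controls. In xMLTK-MO against CoMO, 9 of 10 such Hox probe sets, of 8 genes, lay above 0, with a median log2 difference of 0.28. In xSox6-MO against CoMO, 10 of 10 did, with a median of 0.35. Over all probe sets above the controls on both arrays, 47.1% and 47.5% lay above 0, with medians of -0.020 and -0.018. Most measured hindbrain and midbrain segment genes, described below, also lay above 0 against CoMO, so the sign is not particular to Hox genes. With hoxb5.S and hoxd13.S at their bounds the Hox medians were 0.28 and 0.16. Between the knockdowns, 7 of 11 Hox probe sets were higher in xMLTK-MO than in xSox6-MO, with a median of 0.14, where 50.3% of all probe sets were. The 3 probe sets of hoxc5.L and the hoxa2 pair make up 5 of the 10, so these counts do not stand for as many separate genes. Centred on the hybridisation controls, bacterial transcripts added before hybridisation, every difference gains 0.10 in xMLTK-MO and 0.15 in xSox6-MO. Both hoxa2 homeologs and the brightest hoxc5.L probe set then pass 2-fold in xSox6-MO, 3 in place of 0. Centring moves all other probe sets too, and their share at 2-fold after it was not computed. The poly-A controls, added to the RNA before labelling, were lower than in CoMO by a median of -0.27 and -0.35, and their part in the Hox differences was not tested.

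**Figure D4:**
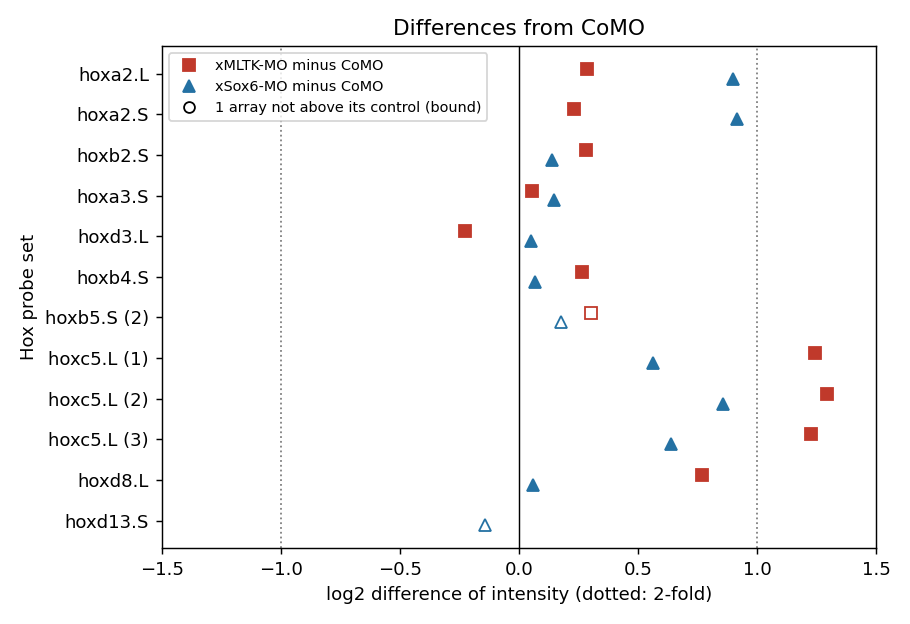
Log2 difference of intensity from CoMO (x axis) for the 12 Hox probe sets measured on at least 1 array, squares for xMLTK-MO and triangles for xSox6-MO; open symbols are bounds because 1 of the arrays was not above its control, and dotted lines mark 2-fold. The 3 hoxc5.L squares lie beyond the line at 1.23 to 1.29, and the hoxa2 triangles lie just inside it at 0.90 and 0.92.

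The tissue held in the heads was checked with gene lists for fore- and midbrain, eye and head and for the posterior axis and trunk. Of 37 probe sets for fore- and midbrain, eye and head genes, 26, 25 and 27 were above the controls in CoMO, xMLTK-MO and xSox6-MO. These shares (70.3%, 67.6% and 73.0%) were near that of all probe sets and below the 81.4%, 80.3% and 81.9% of those with a single gene symbol. Bright members, picked after their values were seen, were otx2.L, a gene of fore- and midbrain, and six6.L, an eye gene. In CoMO, xMLTK-MO and xSox6-MO otx2.L had an intensity of 395, 391 and 469, and six6.L had 371, 440 and 484. Below the controls on every array were hesx1.L, hesx1.S, barhl1.S and fezf1.S, and single probe sets of rax.L, rax.S, six3.S, lhx9.L and pax6.L. No probe set of the list was 2-fold apart from CoMO. Over all measured probe sets, 1.29% were that much higher and 0.809% lower in xMLTK-MO, and 0.868% and 1.13% in xSox6-MO. The medians of the list were -0.013 in xMLTK-MO and 0.11 in xSox6-MO. Its largest differences were those of lhx5.S, 1.73-fold higher in xSox6-MO, and lhx9.S, 1.57-fold lower in xMLTK-MO. Some forebrain and eye genes were thus read on all 3 arrays, but the share of the list above the controls does not mark it out.

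Genes of the tail bud and posterior axis were largely below the controls. Of 19 probe sets, 5 were above on each array, where 80.3% to 81.9% of probe sets with a single gene symbol were. These 5 were those of wnt3a.S, wnt5a.S, evx1.L and dll1.L, all of which are also expressed in brain or face. The probe sets of the tail bud gene tbxt and of cdx1, cdx2 and cdx4, regulators of posterior Hox genes, were below the controls on all 3 arrays. The summed intensity of the list was 1026 in CoMO, 925 in xMLTK-MO and 1089 in xSox6-MO. None was 2-fold apart from CoMO. Over all measured probe sets, 1.29% were that much higher and 0.809% lower in xMLTK-MO, and 0.868% and 1.13% in xSox6-MO. The largest difference of the list was that of wnt3a.S, 1.78-fold and 1.81-fold higher in xMLTK-MO and xSox6-MO.

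Some genes of a list drawn up for trunk tissue, but not all, had the order of arrays seen for hoxc5.L. The list of kidney, spinal motor neuron and limb genes had 10, 10 and 11 of 23 probe sets above the controls in CoMO, xMLTK-MO and xSox6-MO. That is below the 80.3% to 81.9% of probe sets with a single gene symbol. The summed intensity of the list was 1124 in CoMO, 1438 in xMLTK-MO and 1347 in xSox6-MO. The kidney glucose transporter gene slc5a2.L had an intensity of 64.9, 236 and 119, the heart and forelimb gene tbx5.L 54.2, 112 and 101, and the motor neuron and pancreas gene mnx1.L 27.7, 53.5 and 32.4. These 3, picked after their values were seen, were lowest in CoMO and highest in xMLTK-MO, as were the hoxc5.L probe sets. The mnx1.L value in CoMO was close to the control of 23.3 on that array. The probe set of pitx1.L, listed for the limb, had the order of hoxc5.L too, with 331, 372 and 333, as did probe sets of osr1.L, osr2.S and isl1.S. Other members did not share it. For the kidney and spinal cord gene lhx1.L, 1 probe set had 226, 192 and 289 and another 129, 106 and 126, both lowest in xMLTK-MO. A cdh16.L probe set was lowest in xSox6-MO, and another isl1.S probe set was above the control only in xSox6-MO. In xMLTK-MO, 2 of 10 measured probe sets were at least 2-fold higher than in CoMO and 0 lower, where 1.29% and 0.809% of all probe sets were. Of the 10, 8 lay above 0, where 47.6% of all measured probe sets did, with a median of 0.32. In xSox6-MO, 0 of 11 were 2-fold apart, where 0.868% of all were higher and 1.13% lower. Of the 11, 9 lay above 0, where 47.1% of all measured probe sets did, with a median of 0.23. The 9 include the isl1.S probe set that entered only through the xSox6-MO array, where it was brighter, so no direction is read from it. The kidney genes pax8.L and wt1.L and tbx4.L, listed for the limb, were below the controls on every array. So were tbx5.S, osr2.L and every mnx1.S probe set, homeologs of genes named above. In whole heads the tissue in which a gene of this list was read cannot be told. The part of trunk tissue in the Hox differences was not tested, and in whole heads more cells of a type and more RNA per cell cannot be told apart.

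Among Hox cofactor and hindbrain genes, 1 probe set was 2-fold apart from CoMO. Of 11 cofactor probe sets 9 were above the controls on each array (81.8%), near the 80.3% to 81.9% of probe sets with a single gene symbol. Of these 0 were 2-fold apart from CoMO, where 1.29% of all were higher and 0.809% lower in xMLTK-MO, and 0.868% and 1.13% in xSox6-MO. The medians of the cofactors were 0.17 in xMLTK-MO and 0.082 in xSox6-MO. The cofactor gene meis3, which in Xenopus promotes hindbrain fate, had an intensity of 139, 176 and 208 on a meis3.L probe set and 120.5, 158.5 and 178 on that of meis3.S. Both of these were highest in xSox6-MO. Another meis3.L probe set, at 19.4, 24.2 and 20.5, was below the controls on every array. A pbx2.L probe set was 1.56-fold lower in xMLTK-MO, while another, brighter one was 1.01-fold lower. Of 29 probe sets for hindbrain and midbrain segment genes 25, 25 and 26 were above the controls in CoMO, xMLTK-MO and xSox6-MO. These shares were 86.2%, 86.2% and 89.7%. In xMLTK-MO 19 of 25 measured ones lay above CoMO, where 47.6% of all measured probe sets did. In xSox6-MO 23 of 26 did, where 47.1% of all did. The 23 include an en1.L probe set that entered only through the xSox6-MO array, so no direction is read from it. The medians were 0.11 in xMLTK-MO and 0.23 in xSox6-MO. A single probe set of the list reached 2-fold, that of the signalling gene fgf8.L in xMLTK-MO, with 128, 256 and 254, where 1.29% of all probe sets were that much higher. In xSox6-MO it was 1.99-fold higher, more than any Hox probe set on that array. Other fgf8.L probe sets were 1.62-fold and 1.48-fold higher in xMLTK-MO and 1.45-fold and 1.34-fold in xSox6-MO, and another was below the controls. The next largest difference of another gene was that of en2.S, which marks the midbrain and hindbrain border, 1.61-fold higher in xSox6-MO. Its homeolog en2.L was 1.08-fold higher there. The probe set of egr2.L, which marks alternating hindbrain segments in younger embryos, was below the controls.

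Retinoic acid sets the anterior limits of many Hox genes, and the genes of this pathway differed in both directions. Of 39 probe sets 34, 35 and 35 were above the controls in CoMO, xMLTK-MO and xSox6-MO (87.2%, 89.7% and 89.7%). Among probe sets with a single gene symbol 81.4%, 80.3% and 81.9% were. In each comparison with CoMO 23 of 35 lay above 0, where 47.6% and 47.1% of all measured probe sets did. The medians were 0.10 in xMLTK-MO and 0.069 in xSox6-MO. The 23 include a crabp2.L probe set, at 19.3, 40.9 and 31.5, that entered only through the knockdown arrays, where it was brighter. No direction is read from it. Against CoMO, 2 were at least 2-fold higher and 0 lower in xMLTK-MO, and 0 were 2-fold apart in xSox6-MO. The shares of all probe sets were 1.29% higher and 0.809% lower in xMLTK-MO, and 0.868% and 1.13% in xSox6-MO. Both belong to crabp2.L, a retinoic acid binding protein gene, whose brightest probe set had an intensity of 662 in CoMO, 1678 in xMLTK-MO and 1146 in xSox6-MO. Its probe sets disagreed, since another had 183, 138 and 126 and was thus lower on both. The gene of the retinoic acid degrading enzyme cyp26c1.S had 235, 443.5 and 442 on its brightest probe set, 1.89-fold and 1.88-fold higher. The synthesis gene aldh1a2.L, on its brightest probe set, had 739, 920.5 and 968, but another had 476, 398 and 430 and was lower on both knockdown arrays. All 3 probe sets of aldh1a1.L and aldh1a1.S, also of synthesis, were lower in xMLTK-MO than in CoMO, by log2 differences of -0.44, -0.37 and -0.34.

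Chromatin regulators that keep Hox genes on or off, and the genes that flank the clusters, had 0 probe sets 2-fold apart from CoMO. Over all measured probe sets, 1.29% were that much higher and 0.809% lower in xMLTK-MO, and 0.868% and 1.13% in xSox6-MO. On single arrays 80.3% to 81.9% of probe sets with a single gene symbol were above the controls. Of 48 probe sets for trithorax and Polycomb genes 41, 40 and 40 were above the controls in CoMO, xMLTK-MO and xSox6-MO (85.4%, 83.3% and 83.3%). Their medians were 0.020 in xMLTK-MO and 0.057 in xSox6-MO. The largest differences were those of the Polycomb genes phc2.L, 1.80-fold higher in xMLTK-MO, and cbx8.L, 1.80-fold higher in xSox6-MO on a dim probe set. A brighter cbx8.L probe set was 1.18-fold higher in xSox6-MO, and that of cbx8.S was 1.005-fold lower. Of 53 probe sets for genes known to flank vertebrate Hox clusters 47, 46 and 47 were above the controls (88.7%, 86.8% and 88.7%). Their medians were -0.13 in xMLTK-MO and -0.077 in xSox6-MO, below 0. The blood transcription factor gene nfe2.S was 1.61-fold higher in xSox6-MO on 1 dim probe set, while its brightest was 1.01-fold lower. The DNA repair gene smug1.L was 1.60-fold lower in xSox6-MO on its dimmer probe set and 1.28-fold lower on its brighter one.

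**Figure D5:**
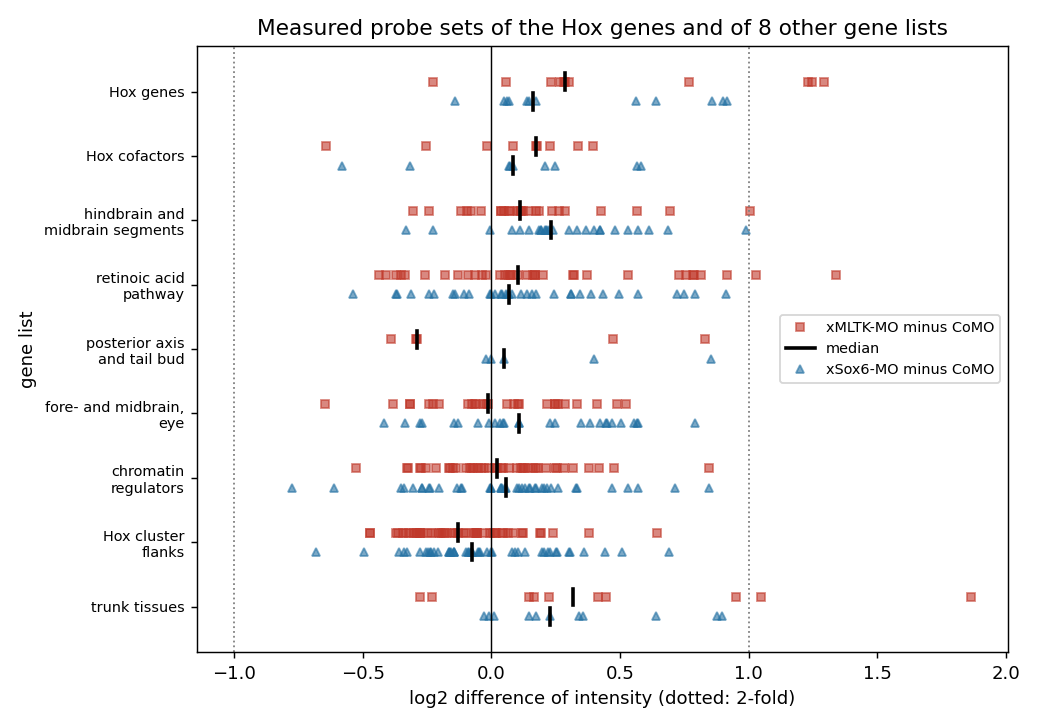
Log2 differences from CoMO (x axis) of every probe set above the controls on at least 1 array of the pair, for the Hox genes and 8 other gene lists, squares for xMLTK-MO and triangles for xSox6-MO; black bars are medians and dotted lines mark 2-fold. The Hox medians, with bounds included, are 0.28 and 0.16, and the flanking genes' medians are -0.13 and -0.077.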

How the data were processed

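The authors deposited 1 table of probe set intensity values on a linear scale, made with RMA per the submitters' processing notes; per the series' design text the scans were analysed with GeneChip operating Software and GeneSpring GX. Groups came from the treatment label. Raw scans and detection calls were not used here. Log2 was taken before any difference. Probe sets were named from the platform annotation, and 33 of the 38 Hox probe sets were matched by gene identifier to a RefSeq table of Xenopus_laevis_v10.1, used for names and neighbours only. Intensities not above the brightest of the 23 negative controls were set to its value on that array, and probe sets above it on at least 1 array of a pair entered the comparison. Called means at least 2-fold. With 1 array per group no test was run. The calls were tested on simulated data, only for changes larger than 2-fold in probe sets well above the controls. That test does not cover dim probe sets or differences near the threshold. The members and the 8 gene lists were chosen with earlier results of these data known. Named with values were all measured Hox probe sets and, of each list, those at least 2-fold from CoMO or else the 2 with the largest difference; otx2.L, six6.L, mnx1.L, lhx1.L, pitx1.L, meis3, aldh1a1, cyp26c1.S, aldh1a2.L and the genes named as below the controls were chosen after their values were seen. Alternatives changed the control limit, the paralog split, the normalisation, the filter, the fold and the summary per gene. Tools were Python 3.11.15, pandas 2.3.3, numpy 2.4.6 and matplotlib 3.10.9.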

Additional observations from a re-analysis of the deposited data

How the results depend on the processing

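No paired analysis was possible because each group has 1 array. With no replicate, none could be left out, and the signal over background limits the posterior genes most. The posterior counts above the controls of 1, 1 and 2 (CoMO, xMLTK-MO, xSox6-MO) became 8, 9 and 8 with the second highest control as limit, and 1 in xSox6-MO with 2 times the control or with 1 limit for all arrays, an alternative chosen after seeing the data. With the paralog split after 4 the posterior counts were 4, 5 and 6. The anterior count was then 6 on each array, since that group held only paralogs 2 to 4, all of whose probe sets passed. After 8, the posterior counts were 0, 0 and 1. The 3 probe sets 2-fold higher in xMLTK-MO are 1 gene, so counting by mean or by brightest probe set gave 1. In xSox6-MO the 0 probe sets 2-fold higher became 3 with centring on hybridisation controls and 4 at 1.5-fold. The share of all probe sets at 2-fold after centring was not computed. Between the knockdowns the 0 became 3 higher and 2 lower at 1.5-fold. Medians here include hoxb5.S and hoxd13.S at their bounds. The median of 0.28 in xMLTK-MO was 0.29 after renewed quantile normalisation, 0.39 centred, 0.27 for probe sets at or above the median level, 0.17 with no filter, 0.27 and 0.28 per gene (mean and brightest) and 0.28 with 1 limit. The median of 0.16 in xSox6-MO was 0.29 with values as deposited, 0.20 renormalised, 0.32 centred, 0.39 at or above the median level, -0.15 with no filter, 0.14 and 0.14 per gene and 0.15 with 1 limit. The value with no filter is the difference between the controls of the arrays, to which most Hox probe sets were raised. Between the knockdowns the median of 0.17, which takes hoxd13.S with a sign set by the controls, was 0.13 as deposited, 0.16 renormalised, 0.12 centred, 0.026 at or above the median level, 0.32 with no filter, 0.14 and 0.13 per gene and 0.14 with 1 limit. In the lists, 2 retinoic acid pathway probe sets 2-fold higher in xMLTK-MO became 1 at 2 times the control, and 0 trunk probe sets 2-fold higher in xSox6-MO became 1 with the second highest control. Single Hox probe sets kept the sign of their difference in 33 of 35 values as deposited, 35 of 35 renormalised, 34 of 35 centred and 33 of 33 with 1 limit, and the exceptions were those of hoxd13.S.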
